A study of Homo sapiens with 20 samples.

Results

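The 47 genes described here encode the working parts of the lysosome and of autophagy: membrane proteins, cathepsins, glycosidases and sulfatases, other hydrolases with their cofactors, subunits of the proton pump, the transcription factors TFEB and TFE3, and 4 proteins of the autophagy machinery. They form a list of gene symbols that was drawn up with earlier results of these data known, so that counts over it are descriptions, and each gene had a row in the table of 58870 genes, of which 19986 were protein-coding. RNA was sequenced from A375 and 1205Lu cells, which are human melanoma cell lines, after treatment with non-targeting siRNAs (si-NT) or with siRNAs targeting FRA1 (si-FRA1), with 3 samples in each of the 4 groups. FRA1 is the protein of the gene FOSL1, a FOS family subunit of the AP-1 transcription factor. Binding of FRA1 was measured by Cut&Run in both lines, with 3 samples with an antibody against FRA1 and 1 sample with IgG per line. Each line stands for itself only, the sources used here give neither siRNA dose nor time after transfection, and nothing in the labels says that the replicates were separate cultures, so that p-values measure the spread between these samples.

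Lysosomes are acidic organelles in which hydrolases break down proteins, glycans and lipids delivered by endocytosis and by autophagy. A proton pump of many subunits, the V-ATPase, keeps the lumen acidic, and membrane proteins such as LAMP1 and LAMP2 line the organelle. TFEB and TFE3, relatives of the melanocyte factor MITF, bind E-box sequences with the letters CACGTG in the promoters of many of these genes, and MITF itself is known for levels that vary widely between melanomas.

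Library depth ranged from 20573412 to 32518903 counts over the 12 RNA-seq samples. FOSL1 was counted at 412, 423 and 407 CPM (counts scaled to a common library size after TMM normalization) in the si-NT samples of A375 cells and at 25.6, 25.6 and 26.0 CPM in the si-FRA1 samples. In 1205Lu cells it was counted at 491, 483 and 477 CPM and at 69.2, 70.8 and 65.0 CPM, so that silencing left 6.19% of the FOSL1 mRNA in A375 cells and 14.0% in 1205Lu cells. SOX10, which marks melanoma cells, was between 43.4 and 44.3 CPM in A375 si-NT samples and between 899.7 and 929 CPM in 1205Lu si-NT samples. The markers S100B, S100A1 and MIA were at or below 2.65 CPM in every A375 si-NT sample. In 1205Lu si-NT samples S100B was between 417 and 434 CPM, S100A1 between 179.9 and 192 CPM and MIA between 73.9 and 75.5 CPM. After silencing, S100A1 stood at 71.2, 71.8 and 73.5 CPM in 1205Lu cells. The pigment genes MLANA, PMEL, TYR and DCT stayed under 2 CPM in all 12 samples. Of 9 melanoma markers, 3 rose and 1 fell of 6 tested in A375 cells, and 0 rose and 4 fell of 7 tested in 1205Lu cells. The part of that change in the results on lysosomal genes was not tested. Markers of leukocytes, endothelium and other epithelia (PTPRC, PECAM1, CDH5, KRT5, KRT14 and EPCAM) were at or below 1.38 CPM in every sample.

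FRA1 silencing moved many lysosomal and autophagy genes by small amounts, and more of them up than down. A gene is said to have risen or fallen on silencing when its adjusted p was under 0.05 (edgeR quasi-likelihood test, Benjamini-Hochberg over all genes tested), and fold changes are si-FRA1 over si-NT. In A375 cells, 24 of 46 genes tested rose (52.2%), where 29.9% of 13598 protein-coding genes tested rose. In the same cells 5 fell (10.9%), where 27.8% of protein-coding genes fell. In 1205Lu cells, 19 of 46 rose (41.3%, beside 24.0% of 13728 protein-coding genes) and 9 fell (19.6%, beside 23.0%). CTSK was too low to be tested in A375 cells and CTSS in 1205Lu cells. The median log2 fold change of the genes tested was 0.24 in A375 cells and 0.080 in 1205Lu cells, beside 0.014 and -0.00093 over protein-coding genes. In these bulk samples a change in the share of some cells and a change in RNA per cell cannot be told apart.

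The changes were mostly under 2-fold. With a limit of 1 on the absolute log2 fold change as well, only TFEB rose in A375 cells (1 of 46 or 2.17%, beside 2.78% of protein-coding genes), and none of the 46 fell (beside 2.51%). In 1205Lu cells none rose and none fell past that limit, beside 1.11% and 1.86% of protein-coding genes. Of the genes that rose or fell, 11 had a log2 fold change over 0.5 upward in A375 cells (23.9%, beside 8.60% of protein-coding genes) and 5 in 1205Lu cells (10.9%, beside 5.43%). None fell by more than 0.5, beside 10.3% of protein-coding genes in A375 cells and 7.65% in 1205Lu cells. The plot of fold changes by role shows these genes beside the rest.

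**Figure D1:**
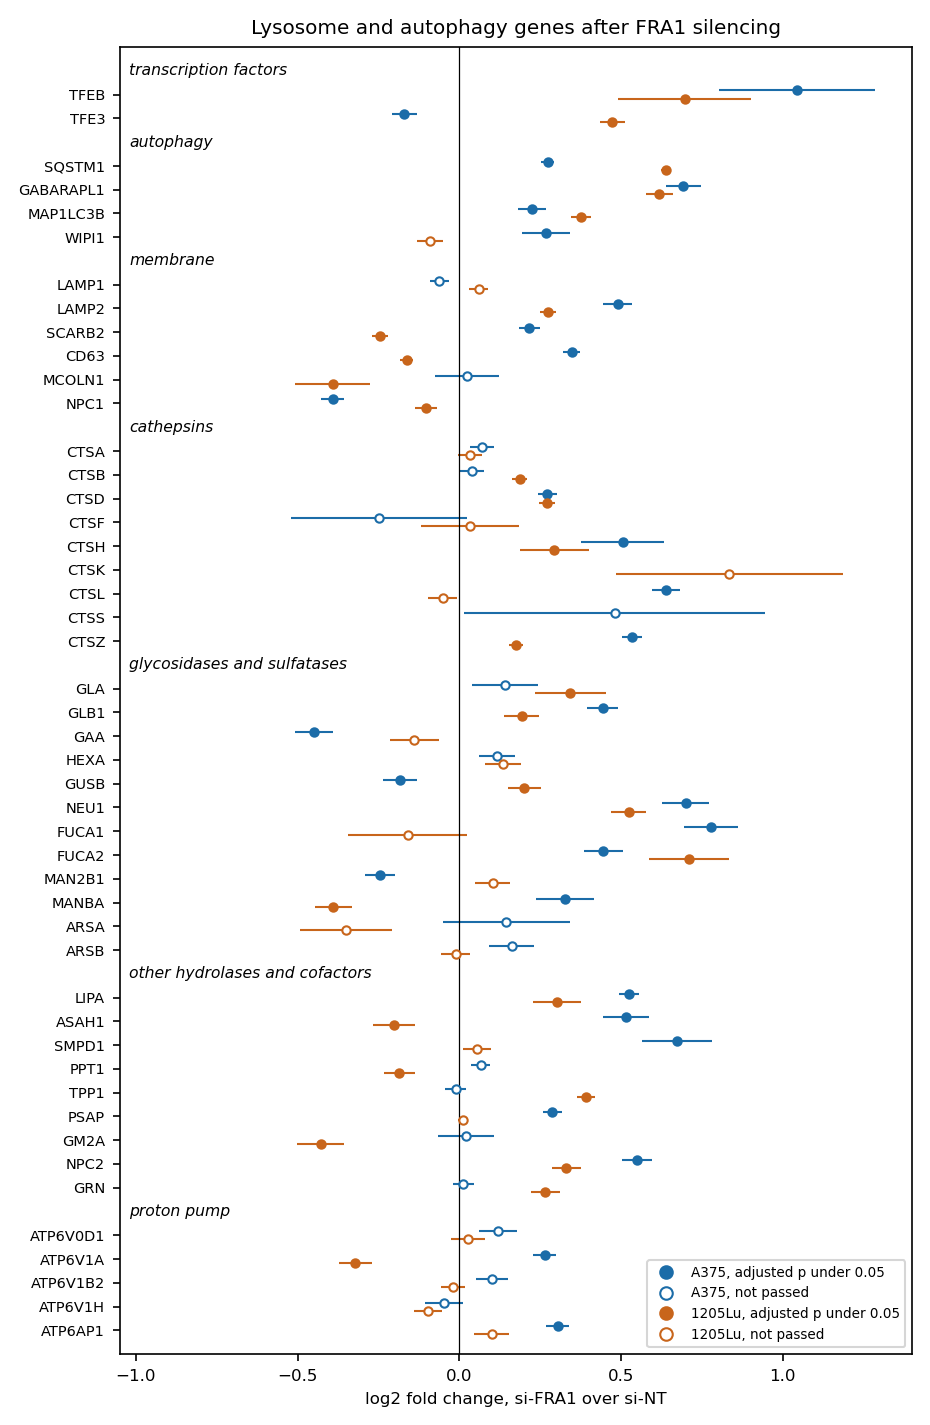
Log2 fold change of each of the 47 genes (si-FRA1 over si-NT, x axis) with its standard error as a bar, in A375 cells (blue) and 1205Lu cells (orange), by role. Filled points had an adjusted p under 0.05. TFEB and GABARAPL1 lay to the right of 0 in both lines, and TFE3, MANBA, ASAH1 and ATP6V1A had filled points on opposite sides of 0.

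TFEB, a basic helix-loop-helix factor that drives transcription of lysosomal genes, rose in both lines from a low level. In A375 cells it stood at 1.36, 1.26 and 1.28 CPM (si-NT) and at 2.97, 2.84 and 2.26 CPM (si-FRA1), a log2 fold change of 1.04 ± 0.24 (SE, adjusted p = 0.000838). The 1205Lu values were 2.59, 2.66 and 2.67 CPM (si-NT) and at 5.69, 3.88 and 3.44 CPM (si-FRA1), a log2 fold change of 0.70 ± 0.20 (adjusted p = 0.00967). The groups did not overlap in either line, but in 1205Lu cells the highest si-FRA1 sample carried much of the change. Without it (si-FRA1 replicate 1) the log2 fold change was 0.46 and the adjusted p was 0.0964.

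TFE3, the more abundant of the pair, moved in opposite directions in the 2 lines. In A375 cells it stood at 96.3, 95.8 and 92.5 CPM (si-NT) and fell to 83.3, 89.9 and 80.8 CPM after silencing (log2 fold change -0.17 ± 0.039, adjusted p = 0.000728). The 1205Lu samples stood at 53.6, 53.8 and 55.6 CPM (si-NT) and rose to 75.8, 75.9 and 77.2 CPM (log2 fold change 0.47 ± 0.040, adjusted p = 5.84e-09). The silenced samples lay below all controls in A375 cells and above them all in 1205Lu cells. The difference between the lines was 0.66 ± 0.056 (adjusted p = 8.73e-10, interaction of line and silencing over 12 samples).

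Of the 47 genes, 35 had a promoter of 300 bases in the RefSeq table (GRCh38.p14), and the other 12, LAMP2, CTSB, CTSK, CTSS, HEXA, MANBA, ARSA, ASAH1, PSAP, ATP6V1A, ATP6V1B2 and ATP6V1H, were not searched. The E-box CACGTG, searched on both strands, was in 9 of the 35 promoters (25.7%), beside 7.26% of 35116 promoters. The 35116 are all promoters of the RefSeq table, with no limit to protein-coding genes or to genes tested for expression. Its longer form TCACGTGA, which contains CACGTG, was in 5 (14.3%, beside 0.98%), those of LAMP1, MCOLN1, CTSA, GAA and ATP6V0D1. These stretches are shown because the long form is the core of the site described for TFEB and TFE3. The E-box of NEU1 is added as a gene that rose in both lines. Each is read 5′ to 3′ on the strand of its gene, with an E-box in capitals. The CTSA stretch holds another CACGTG in lower case, and other E-boxes of these promoters are not shown.
MCOLN1, chr19:7522585-7522623, plus strand: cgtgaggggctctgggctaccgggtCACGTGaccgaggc
GAA, chr17:80101525-80101580, plus strand: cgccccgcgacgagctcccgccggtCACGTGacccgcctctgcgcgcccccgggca
CTSA, chr20:45891285-45891334, plus strand: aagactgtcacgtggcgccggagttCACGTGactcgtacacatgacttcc
LAMP1, chr13:113297186-113297238, plus strand: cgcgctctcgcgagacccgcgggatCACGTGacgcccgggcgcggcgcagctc
ATP6V0D1, chr16:67481186-67481241, minus strand: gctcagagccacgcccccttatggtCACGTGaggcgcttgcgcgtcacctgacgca
NEU1, chr6:31862917-31862972, minus strand, short form: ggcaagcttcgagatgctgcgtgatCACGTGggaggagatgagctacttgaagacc

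Genes with an E-box rose, fell or did not pass. Of the 9, CD63, CTSD and NEU1 rose in A375 cells, GAA fell and 5 did not pass, and in 1205Lu cells CTSD and NEU1 rose, CD63 and MCOLN1 fell and 5 did not pass. The shares that rose, 33.3% and 22.2%, were near the 29.9% and 24.0% of all protein-coding genes. Of the 5 with the longer form, 0 rose in either line. A match of letters is a description of the reference sequence and does not show that a factor was bound.

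The counts by role that follow are of small groups, none of which was tested against other genes, and are to be read beside the shares of protein-coding genes that rose and fell, 29.9% and 27.8% in A375 cells and 24.0% and 23.0% in 1205Lu cells. All 4 autophagy genes rose in A375 cells and 3 of them rose in 1205Lu cells. SQSTM1, the receptor p62 that carries ubiquitinated cargo into autophagosomes, was among the most abundant of the 47. In A375 cells it stood at 419, 414 and 411 CPM (si-NT) and at 503, 514 and 492 CPM (si-FRA1), a log2 fold change of 0.27 ± 0.020 (adjusted p = 4.59e-11). The 1205Lu samples held 945, 968 and 959 CPM (si-NT) and at 1502, 1513 and 1510 CPM (si-FRA1), a log2 fold change of 0.64 ± 0.014 (adjusted p = 6.76e-18). The groups were far apart beside their spread in both lines, and the rise was larger in 1205Lu cells by 0.38 ± 0.025 (adjusted p = 6.73e-12).

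GABARAPL1, a ubiquitin-like protein of the ATG8 family that is joined to autophagosome membranes, rose in both lines. It stood at 28.6, 29.4 and 29.6 CPM (si-NT) and at 44.7, 50.7 and 47.0 CPM (si-FRA1) in A375 cells (log2 fold change 0.69 ± 0.055, adjusted p = 1.88e-10). The values in 1205Lu cells were 50.3, 47.3 and 48.8 CPM and at 74.5, 78.2 and 75.3 CPM (log2 fold change 0.62 ± 0.042, adjusted p = 2.85e-10). The difference between the lines, -0.06 ± 0.070, did not pass (adjusted p = 0.559). MAP1LC3B, which encodes the autophagosome marker LC3B, rose by 0.22 ± 0.043 in A375 cells and by 0.38 ± 0.031 in 1205Lu cells on the log2 scale. GABARAPL1 and MAP1LC3B have near-identical copies elsewhere in the genome (GABARAPL3 and MAP1LC3B2), and how reads were divided between the copies leaves their counts uncertain to that extent. WIPI1, which binds phosphoinositides where autophagosomes form, rose in A375 cells (log2 fold change 0.27 ± 0.075) and did not pass in 1205Lu cells (-0.09 ± 0.041, adjusted p = 0.0918).

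**Figure D2:**
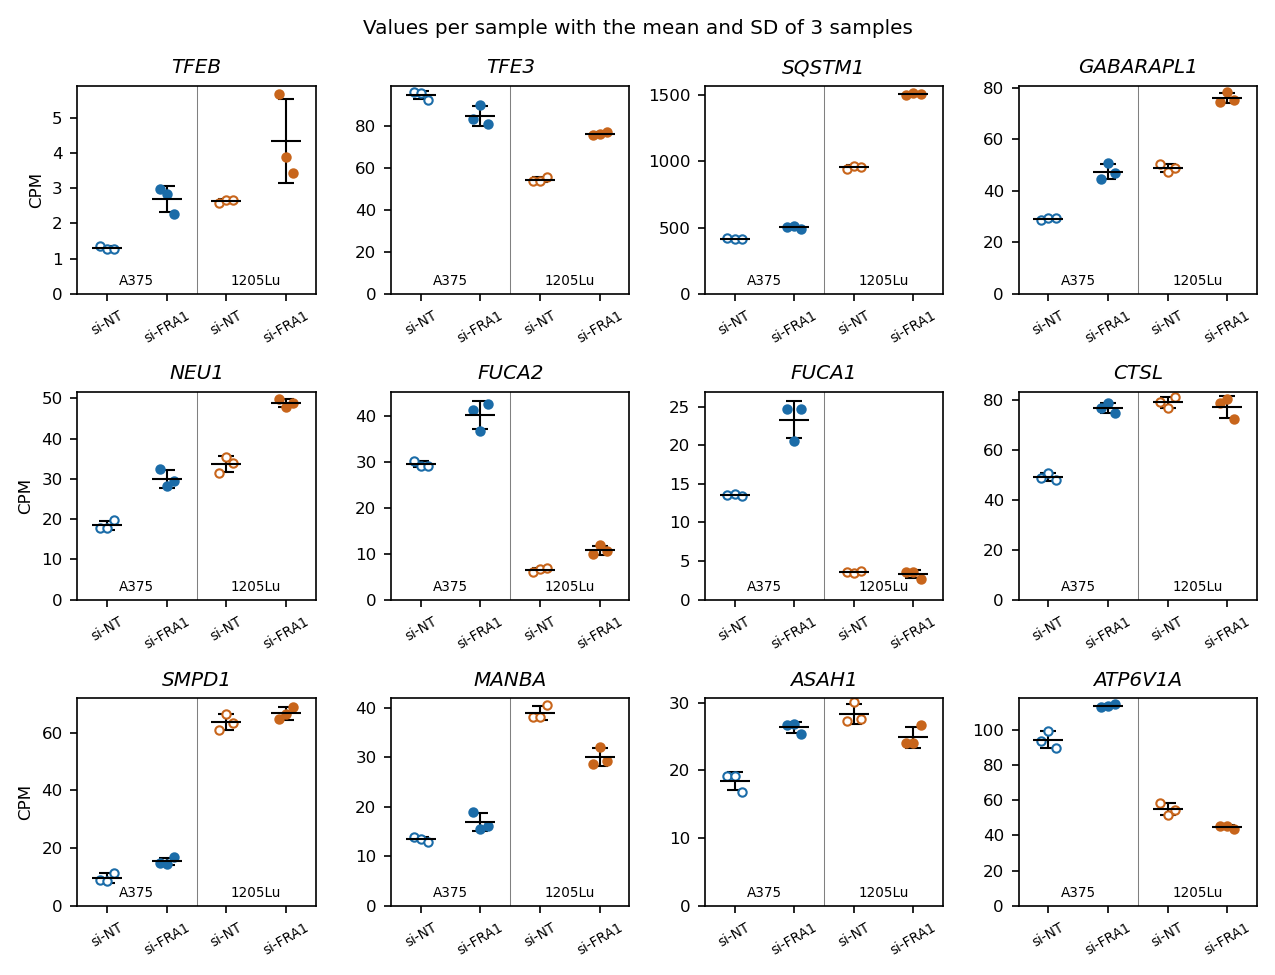
CPM of 12 genes in each RNA-seq sample (y axis from 0), with open circles for si-NT and filled circles for si-FRA1, blue for A375 and orange for 1205Lu cells, and a black line and bar for the mean and SD of 3 samples. The silenced samples of SQSTM1, GABARAPL1 and NEU1 lie above the controls in both lines, while FUCA1, CTSL and SMPD1 separate only in A375 cells.

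Of the 6 membrane proteins, 3 rose (50.0%) and 1 fell (16.7%) in A375 cells, and 1 rose (16.7%) and 4 fell (66.7%) in 1205Lu cells. LAMP1, the abundant glycoprotein used as a lysosome marker, stood at 139, 134 and 136 CPM (si-NT) and 130, 134 and 129 CPM (si-FRA1) in A375 cells, and at 144, 148 and 151 CPM and 158, 156 and 153 CPM in 1205Lu cells. Its log2 fold changes of -0.06 ± 0.029 and 0.06 ± 0.029 did not pass (adjusted p = 0.0822 and 0.119). LAMP2, its relative that also serves in chaperone-mediated autophagy, rose in both lines, by 0.49 ± 0.044 and 0.27 ± 0.026 on the log2 scale. SCARB2, the receptor that brings glucocerebrosidase to the lysosome, and the tetraspanin CD63 rose in A375 cells (0.22 ± 0.033 and 0.35 ± 0.026) and fell in 1205Lu cells (-0.24 ± 0.025 and -0.16 ± 0.021).

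NPC1, which exports cholesterol from the lysosome, was the one gene of the 47 that fell in both lines. It changed by -0.39 ± 0.037 on the log2 scale in A375 cells (adjusted p = 3.07e-09) and by -0.10 ± 0.035 in 1205Lu cells (adjusted p = 0.0237), and the second call ended without si-NT replicate 2 or 3 or si-FRA1 replicate 1 or 3, with adjusted p between 0.0777 and 0.142. MCOLN1, a calcium channel of the lysosome membrane, stood between 10.2 and 10.5 CPM in all 6 samples of A375 cells. In 1205Lu cells it was at 11.4, 11 and 12.7 CPM (si-NT) and 9.87, 9.31 and 7.93 CPM after silencing (log2 fold change -0.39 ± 0.12, adjusted p = 0.00984), and this call ended without si-NT replicate 3 or si-FRA1 replicate 3 (adjusted p = 0.0621 and 0.0703).

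Of the 9 cathepsins, 8 were tested in each line, and 4 rose (50.0%), 0 fell and 4 did not pass in each. CTSL, a cysteine protease, stood at 48.7, 50.8 and 47.7 CPM (si-NT) and at 76.6, 78.7 and 74.8 CPM (si-FRA1) in A375 cells, with no overlap (log2 fold change 0.64 ± 0.043, adjusted p = 8.3e-12). In 1205Lu cells its values were 79.1, 76.6 and 81.1 CPM and 78.9, 80.2 and 72.1 CPM, which overlapped (-0.05 ± 0.044, adjusted p = 0.383). The difference between the lines was -0.68 ± 0.061 (adjusted p = 2.13e-09), and the silenced A375 samples stood near the level of 1205Lu cells.

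CTSZ, a carboxypeptidase, rose in both lines. It stood at 104, 106 and 104 CPM (si-NT) and 152, 150 and 156 CPM (si-FRA1) in A375 cells (log2 fold change 0.53 ± 0.030), and at 292, 296 and 307 CPM and 339, 340 and 344 CPM in 1205Lu cells (0.18 ± 0.022). CTSD, the main aspartic protease of the lysosome, rose by the same 0.27 on the log2 scale in both lines (SE 0.030 and 0.025). The aminopeptidase CTSH was low, at 5.60, 6.01 and 5.42 CPM (si-NT) and 8.93, 7.09 and 8.17 CPM (si-FRA1) in A375 cells (0.51 ± 0.13, adjusted p = 0.00206). In 1205Lu cells it was at 10.3, 13.4 and 12.8 CPM and 16.0, 13.9 and 15.2 CPM (0.29 ± 0.11, adjusted p = 0.0329), a call that ended without si-NT replicate 1 (log2 fold change 0.19), si-FRA1 replicate 1 or si-FRA1 replicate 3, with adjusted p between 0.0751 and 0.182.

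The cysteine protease CTSB rose in 1205Lu cells (0.19 ± 0.023) and did not pass in A375 cells (0.04 ± 0.037). CTSA, which protects NEU1 and GLB1 in a complex, and CTSF did not pass in either line, and CTSK and CTSS, known from osteoclasts and from antigen-presenting cells, stayed at or below 2.05 and 0.876 CPM in every sample.

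Of 12 glycosidases and sulfatases, 5 rose (41.7%) and 3 fell (25%) in A375 cells, and 5 rose (41.7%) and 1 fell (8.3%) in 1205Lu cells. NEU1, the lysosomal sialidase (chr6:31857659-31862905, GRCh38, minus strand), rose in both lines. In A375 cells it stood at 17.8, 17.8 and 19.8 CPM (si-NT) and at 32.5, 28.2 and 29.4 CPM after silencing (log2 fold change 0.70 ± 0.072, adjusted p = 1.52e-08). Values of 31.5, 35.5 and 34.1 CPM were found in 1205Lu cells with si-NT and of 49.9, 47.9 and 48.8 CPM with si-FRA1 (0.52 ± 0.054, adjusted p = 1.13e-07). The groups were apart in both lines, and the lines did not differ past the threshold (-0.17 ± 0.092, adjusted p = 0.186).

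The 2 fucosidases behaved differently in the lines. FUCA1, the lysosomal enzyme, stood at 13.5, 13.7 and 13.4 CPM (si-NT) and 24.7, 20.5 and 24.7 CPM (si-FRA1) in A375 cells (log2 fold change 0.78 ± 0.083, adjusted p = 2.8e-08). The 1205Lu samples were low and overlapped, at 3.62, 3.46 and 3.78 CPM and 3.55, 3.61 and 2.67 CPM (-0.16 ± 0.18, adjusted p = 0.537), and the difference between the lines was -0.93 ± 0.18 (adjusted p = 0.000188). FUCA2, its secreted relative, stood at 30.2, 29.1 and 29.1 CPM and 41.3, 36.7 and 42.7 CPM in A375 cells (0.45 ± 0.060, adjusted p = 9.67e-07). It was at 6.07, 6.71 and 6.81 CPM and 9.97, 11.9 and 10.5 CPM in 1205Lu cells (0.71 ± 0.12, adjusted p = 8.54e-05), and the 2 lines did not differ past the threshold (0.28 ± 0.12, adjusted p = 0.0788).

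MANBA, the beta-mannosidase, rose in A375 cells from 13.9, 13.5 and 13.0 CPM to 19.0, 15.5 and 16.1 CPM (log2 fold change 0.33 ± 0.090, adjusted p = 0.00405). Without si-FRA1 replicate 1, its highest silenced sample, the adjusted p was 0.0556. The reverse held in 1205Lu cells, where MANBA fell from 38.0, 38.1 and 40.5 CPM to 28.6, 32.1 and 29.3 CPM (-0.39 ± 0.057, adjusted p = 1.31e-05), and the difference between the lines was -0.71 ± 0.11 (adjusted p = 9.32e-06). GUSB, the beta-glucuronidase, went the other way, falling in A375 cells (-0.18 ± 0.054) and rising in 1205Lu cells (0.20 ± 0.050).

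GLB1, the beta-galactosidase read out in assays of senescence, rose in both lines (0.44 ± 0.047 and 0.19 ± 0.054). GAA, which degrades glycogen, and the alpha-mannosidase MAN2B1 fell in A375 cells (-0.45 ± 0.059 and -0.25 ± 0.046) and did not pass in 1205Lu cells. The alpha-galactosidase GLA rose in 1205Lu cells (0.34 ± 0.11, adjusted p = 0.0154), and that call ended without si-NT replicate 3, si-FRA1 replicate 2 or si-FRA1 replicate 3 (adjusted p between 0.0577 and 0.0894). HEXA, which degrades GM2 ganglioside, and the sulfatases ARSA and ARSB did not pass in either line.

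Of 9 other hydrolases and cofactors, 5 rose (55.6%) and 0 fell in A375 cells, and 4 rose (44.4%) and 3 fell (33.3%) in 1205Lu cells. LIPA, the acid lipase for cholesteryl esters, rose in A375 cells from 95.4, 96.5 and 95.5 CPM to 136, 140 and 139 CPM (log2 fold change 0.52 ± 0.030) and in 1205Lu cells from 19.2, 17.2 and 18.6 CPM to 22.0, 24.4 and 22.3 CPM (0.30 ± 0.073). NPC2, the soluble cholesterol carrier that hands its cargo to NPC1, rose in A375 cells from 44.6, 45.6 and 46.2 CPM to 64.9, 66.1 and 69.5 CPM (0.55 ± 0.045) and in 1205Lu cells from 59.8, 57.6 and 60.6 CPM to 74.9, 72.4 and 79.6 CPM (0.33 ± 0.043).

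SMPD1, the acid sphingomyelinase that releases ceramide, and ASAH1, the acid ceramidase that breaks it down, both rose in A375 cells and differed between the lines. SMPD1 stood at 8.81, 8.58 and 11.5 CPM (si-NT) and 14.8, 14.6 and 16.9 CPM (si-FRA1) in A375 cells (log2 fold change 0.67 ± 0.11, adjusted p = 1.36e-05). Its levels in 1205Lu cells, 61.0, 66.5 and 63.3 CPM and 64.7, 66.4 and 69.0 CPM, overlapped (0.05 ± 0.043, adjusted p = 0.363), and the difference was -0.61 ± 0.11 (adjusted p = 8.58e-05). ASAH1 rose in A375 cells from 19.2, 19.2 and 16.8 CPM to 26.8, 26.9 and 25.5 CPM (0.51 ± 0.071, adjusted p = 1.47e-06). Silencing lowered it in 1205Lu cells from 27.4, 30.1 and 27.6 CPM to 24.1, 24.0 and 26.7 CPM (-0.20 ± 0.066, adjusted p = 0.0186), a call that ended without si-NT replicate 2, si-FRA1 replicate 1 or si-FRA1 replicate 2 (adjusted p between 0.0782 and 0.112). The difference between the lines for ASAH1 was -0.70 ± 0.099 (adjusted p = 2.99e-06).

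PSAP, the precursor of the saposins that help sphingolipid hydrolases, rose in A375 cells (0.29 ± 0.028) and did not pass in 1205Lu cells (0.01 ± 0.016), where it was most abundant. The tripeptidyl peptidase TPP1 and progranulin, GRN, rose in 1205Lu cells (0.39 ± 0.028 and 0.27 ± 0.045) and did not pass in A375 cells. The thioesterase PPT1 and the activator protein GM2A fell in 1205Lu cells (-0.18 ± 0.047 and -0.43 ± 0.073) and did not pass in A375 cells.

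Of 5 subunits of the proton pump, 2 rose and 0 fell in A375 cells, and 0 rose and 1 fell in 1205Lu cells. ATP6V1A, which holds the sites where ATP is hydrolysed, rose in A375 cells from 93.5, 99.6 and 90.0 CPM to 113, 114 and 115 CPM (log2 fold change 0.26 ± 0.036, adjusted p = 1.31e-06). It fell in 1205Lu cells from 58.7, 51.8 and 54.7 CPM to 45.4, 45.1 and 43.5 CPM (-0.32 ± 0.052, adjusted p = 3.56e-05). The groups were apart in both lines, in opposite directions, and the difference was -0.57 ± 0.063 (adjusted p = 6.73e-08). The accessory subunit ATP6AP1 rose in A375 cells (0.30 ± 0.035), and ATP6V0D1, ATP6V1B2 and ATP6V1H did not pass in either line.

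Set side by side, 45 of the genes were tested in both lines. Of these 13 rose in both (28.9%), beside 12.1% of 12663 protein-coding genes tested in both: LAMP2, CTSD, CTSH, CTSZ, GLB1, NEU1, FUCA2, LIPA, NPC2, TFEB, SQSTM1, GABARAPL1 and MAP1LC3B. Only NPC1 fell in both (2.22%, beside 12.3% of protein-coding genes). SCARB2, CD63, MANBA, ASAH1 and ATP6V1A rose in A375 cells and fell in 1205Lu cells (11.1%, beside 4.94%), and GUSB and TFE3 did the reverse (4.44%, beside 4.92%). As given above, single samples left out ended the calls of TFEB, CTSH, NPC1 and ASAH1 in 1205Lu cells and of MANBA in A375 cells.

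By the test of the difference itself, 30 of 47 genes responded differently in the lines. In 11 the log2 fold change was higher in 1205Lu cells (23.4%, beside 19.9% of 14844 protein-coding genes) and in 19 it was lower (40.4%, beside 18.9%). The 7 differences over 0.5 on the log2 scale were those of CTSL, FUCA1, MANBA, ASAH1, SMPD1, ATP6V1A and TFE3, with CD63 just outside at -0.50 ± 0.037. Of the 7, TFE3 was higher in 1205Lu cells (2.13%, beside 8.56% of protein-coding genes) and 6 were lower (12.8%, beside 7.91%).

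The lines also differed in the level of most of these genes before silencing. With si-NT, 30 of 47 were higher in 1205Lu cells (63.8%, beside 37.8% of protein-coding genes) and 13 were higher in A375 cells (27.7%, beside 44.0%). More than 2-fold apart were 17 genes higher in 1205Lu cells (36.2%, beside 19.5% of protein-coding genes) and 5 higher in A375 cells (10.6%, beside 19.4%). The largest log2 differences of 1205Lu over A375 were those of SMPD1 (2.72 ± 0.077), WIPI1 (2.31 ± 0.053), PSAP (2.24 ± 0.024) and LAMP2 (2.22 ± 0.039). Higher in A375 cells were LIPA (-2.38 ± 0.046), FUCA2 (-2.18 ± 0.086), FUCA1 (-1.90 ± 0.12), GRN (-1.52 ± 0.038) and MAN2B1 (-1.03 ± 0.048). ATP6V1B2 was just inside the limit at 1.00 ± 0.044. CTSK, at under 2 CPM, was the weakest of the 17, and its call ended without A375 si-NT replicate 2 or 3 or 1205Lu si-NT replicate 1 (adjusted p between 0.0681 and 0.185). MITF, the relative of TFEB that drives pigment cell genes, was between 49.9 and 54.6 CPM in A375 si-NT samples and between 3.28 and 3.73 CPM in 1205Lu si-NT samples. It rose on silencing in A375 cells, to 60.4, 67.2 and 64.3 CPM (log2 fold change 0.29 ± 0.048, adjusted p = 2.22e-05), and did not pass in 1205Lu cells (-0.13 ± 0.19, adjusted p = 0.628).

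Between genes, levels can be compared only per length of exon. With si-NT, CD63, PSAP and SQSTM1 led in both lines, at 86.0, 61.8 and 55.0 CPM per kb in A375 cells and 231, 292 and 127 CPM per kb in 1205Lu cells. CTSK, CTSS and TFEB stood lowest in both, at 0.0455, 0.0647 and 0.194 CPM per kb in A375 cells and 0.0999, 0.0661 and 0.393 CPM per kb in 1205Lu cells. Per kb, TFE3 exceeded TFEB by far in both lines, at 22.5 CPM per kb in A375 cells and 12.9 CPM per kb in 1205Lu cells. The lengths came from a newer annotation than the counts and join the exons of all annotated transcripts of a gene. Such a length can exceed that of any single transcript and lowers the value per kb. CTSZ, for example, was given 19384 bases and stood at 5.41 CPM per kb in A375 cells with si-NT, at a mean of 105 CPM. The order of the genes holds for this measure only.

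**Figure D3:**
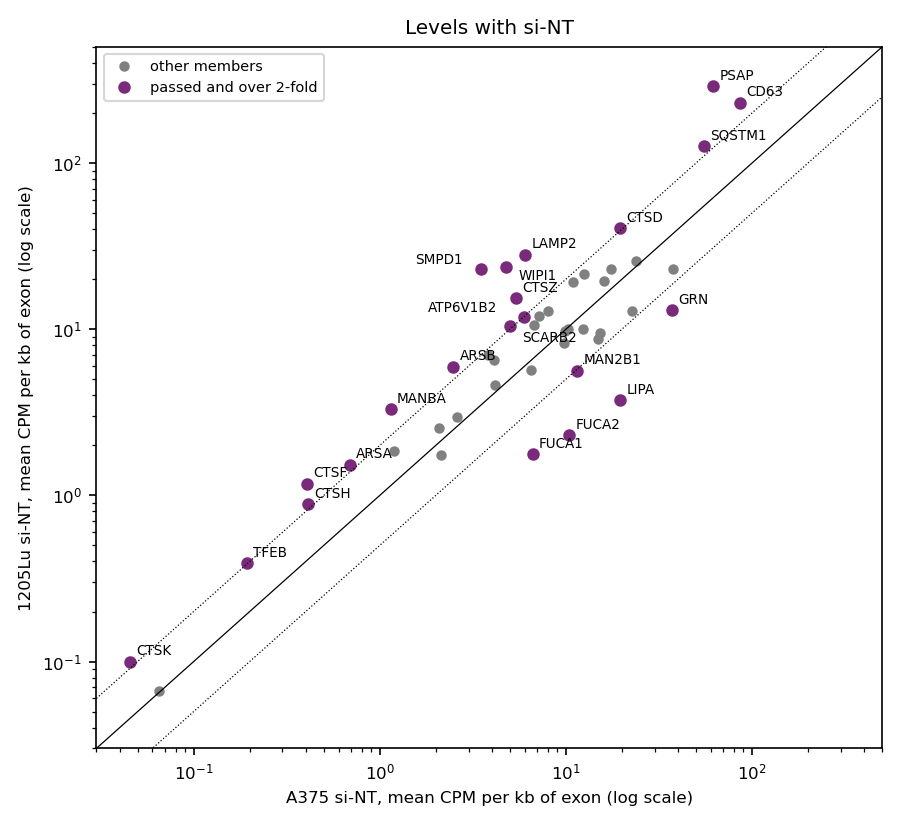
Mean level of each gene with si-NT in A375 cells (x axis) and 1205Lu cells (y axis), in CPM per kb of exon on log scales, with lines for equal levels and for 2-fold differences. Purple points passed with more than a 2-fold difference: 17 were higher in 1205Lu cells, with SMPD1, WIPI1 and LAMP2 among the farthest from the line of equal levels, and LIPA, FUCA1, FUCA2, GRN and MAN2B1 were higher in A375 cells.

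Lists of other genes of the pathway, outside the 47, are described by the same counts, to be read beside the same shares of protein-coding genes (29.9% up and 27.8% down in A375 cells, 24.0% and 23.0% in 1205Lu cells), and the lists were not tested against each other or against other genes. Of 26 core autophagy genes, 7 rose (26.9%) and 5 fell (19.2%) in A375 cells, and 14 rose (53.8%) and 3 fell (11.5%) in 1205Lu cells. RB1CC1 and ATG101, partners of the kinase ULK1 in the complex that starts autophagy, rose in both lines (0.30 ± 0.029 and 0.41 ± 0.069 in A375 cells, 0.50 ± 0.027 and 0.52 ± 0.071 in 1205Lu cells). ULK1 itself fell in A375 cells (-0.53 ± 0.071) and rose in 1205Lu cells (0.39 ± 0.057). ATG12, a ubiquitin-like protein of the conjugation system, fell in both (-0.53 ± 0.051 and -0.31 ± 0.050). Of 8 other autophagy receptors, 3 rose (37.5%) and 2 fell (25%) in A375 cells, and 4 rose (50.0%) and 2 fell (25%) in 1205Lu cells, with the mitophagy receptor BNIP3 lower in both (-0.53 ± 0.034 and -0.92 ± 0.039).

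Of 12 other subunits of the V-ATPase, 5 rose (41.7%) and 6 fell (50.0%) in A375 cells, and 3 rose (25%) and 5 fell (41.7%) in 1205Lu cells. ATP6V1G1 fell from a mean of 51.5 to 17.8 CPM in A375 cells (log2 fold change -1.54 ± 0.055) and from 72.5 to 29.9 CPM in 1205Lu cells (-1.30 ± 0.052), further than any tested gene of the 47 moved in either line. Of 22 other lysosomal enzymes, 13 of 21 tested rose (61.9%) and 2 fell (9.5%) in A375 cells, and 4 of 22 rose (18.2%) and 3 fell (13.6%) in 1205Lu cells. The cathepsin CTSO rose in both (1.24 ± 0.19 from a mean of 1.84 CPM in A375 cells, 0.62 ± 0.13 from 5.83 CPM in 1205Lu cells).

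Of 12 other proteins listed for the lysosome, most of them of its membrane, 4 rose (33.3%) and 2 fell (16.7%) in A375 cells, and 7 of 11 tested rose (63.6%) and 1 fell (9.1%) in 1205Lu cells. The cystine exporter CTNS rose in 1205Lu cells (0.60 ± 0.14). CD68, a glycoprotein best known from macrophages, fell in both (-0.43 ± 0.040 and -1.22 ± 0.10), and the aminopeptidase ANPEP fell in A375 cells (-0.67 ± 0.029) and was too low to test in 1205Lu cells. Of 13 genes that deliver enzymes to the lysosome, 5 rose (38.5%) and 1 fell (7.7%) in A375 cells, and 4 rose (30.8%) and 2 fell (15.4%) in 1205Lu cells. The retromer subunit VPS35 rose (0.35 ± 0.026) and the adaptor GGA1 fell (-0.28 ± 0.057) in A375 cells, whereas GNPTAB, which makes the mannose phosphate tag of lysosomal enzymes, fell in 1205Lu cells (-0.56 ± 0.074). VPS26A, also of retromer, rose in both lines (0.16 ± 0.044 and 0.41 ± 0.040).

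Of 21 genes that act on TFEB and TFE3 through the kinase complex mTORC1 or belong to their family, 10 rose (47.6%) and 4 fell (19.0%) in A375 cells, and 7 rose (33.3%) and 2 fell (9.5%) in 1205Lu cells. FLCN, folliculin, which promotes retention of TFEB and TFE3 in the cytoplasm, fell in A375 cells (-0.52 ± 0.10) and rose in 1205Lu cells (0.30 ± 0.071). Its partner FNIP1 rose in both lines (0.22 ± 0.048 and 0.44 ± 0.034), as did LAMTOR3 of the Ragulator complex (0.47 ± 0.11 and 0.49 ± 0.084). TFEC rose in A375 cells from a mean of only 0.450 CPM (1.37 ± 0.41, adjusted p = 0.00684), and without si-FRA1 replicate 2 the adjusted p was 0.0669. Of 7 cathepsin inhibitors only 2 were tested, and CSTB rose in A375 cells (0.29 ± 0.040).

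FRA1 binding was read from counts in 54563 consensus peaks. For 32 of the 47 genes a consensus peak lay within 3 kb of a transcription start, with 50 such peaks in all. A peak was called enriched when every FRA1 sample held 10 counts or more and reached 4 times the IgG count plus 1, a rule without a p-value, since each line had 1 IgG sample. In A375 cells, 15 of 46 genes (32.6%) had an enriched promoter peak, beside 35.0% of 13578 protein-coding genes, and in 1205Lu cells 2 of 46 (4.35%), beside 4.87% of 13710. The share was thus near that of all genes in both lines.

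The counts set a limit to these calls. The FRA1 samples held 8.74 to 13.9 times the counts of the IgG sample in A375 cells and 1.86 to 2.85 times in 1205Lu cells. With counts scaled to equal totals in peaks, 0 of the genes were enriched in either line. Those totals lie inside FRA1 peaks, so the scaling also takes out enrichment that all peaks share. A count of 0 under it does not show that FRA1 was absent from these promoters. Without A375 FRA1 replicate 1, the lowest of the 3, 24 genes were enriched in place of 15. The share of all protein-coding genes under that setting is not given beside it, so the rise describes the rule and not these genes. In 1205Lu cells FRA1 replicates 2 and 3 were nearly as close as repeat counts of 1 library would be (chi-square over degrees of freedom 1.06, against 1.90 and 1.62 for their pairs with replicate 1), and with their average taken as 1 sample 2 genes were again enriched. The A375 FRA1 samples were close as well, at 1.25 for replicates 1 and 2, 1.09 for 1 and 3, and 1.13 for 2 and 3. How far the FRA1 samples of a line were independent was not tested.

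Among the A375 genes that rose, 8 of 24 had an enriched promoter peak, beside 2 of 5 that fell and 5 of 17 that did not pass. Of all protein-coding genes, 35.0% had such a peak in A375 cells. A link between such a peak and the direction of change was not tested. NEU1 had the highest counts and was the one gene enriched in both lines. At its peak, chr6:31862563-31864023, which covers the 5′ end of the gene, the FRA1 samples held 344, 538 and 420 counts and IgG 17 in A375 cells, and 77, 170 and 110 counts and IgG 14 in 1205Lu cells. At the peak of GABARAPL1, chr12:10211840-10213688, the FRA1 samples held 225, 352 and 284 counts and IgG 18 in A375 cells, but 41, 69 and 70 counts and IgG 23 in 1205Lu cells, under the limit. Both genes rose in both lines.

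At the promoter peak of TFE3, chrX:49042968-49044017, the FRA1 samples of A375 cells held 122, 155 and 134 counts and IgG 13. The peak of SMPD1, chr11:6389948-6390454, held 33, 50 and 36 counts and IgG 3. For SQSTM1 the enriched peak, chr5:179818607-179822179, held 280, 463 and 350 counts and IgG 43. It covered an annotated transcription start downstream of the outermost 5′ end of the gene. Which of the 14 annotated starts of SQSTM1 is the main one was not examined. In 1205Lu cells LAMP2 was enriched at a peak 2447 bases from its nearest start, with 12, 29 and 24 counts and IgG 2, exactly at the limit, and no consensus peak was found near a start of TFEB, FUCA1, MANBA, ASAH1, CTSZ or 10 other genes. Just inside the limit in A375 cells was CTSA, with a lowest ratio of 4.33, and just outside was MAP1LC3B, at 3.60.

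**Figure D4:**
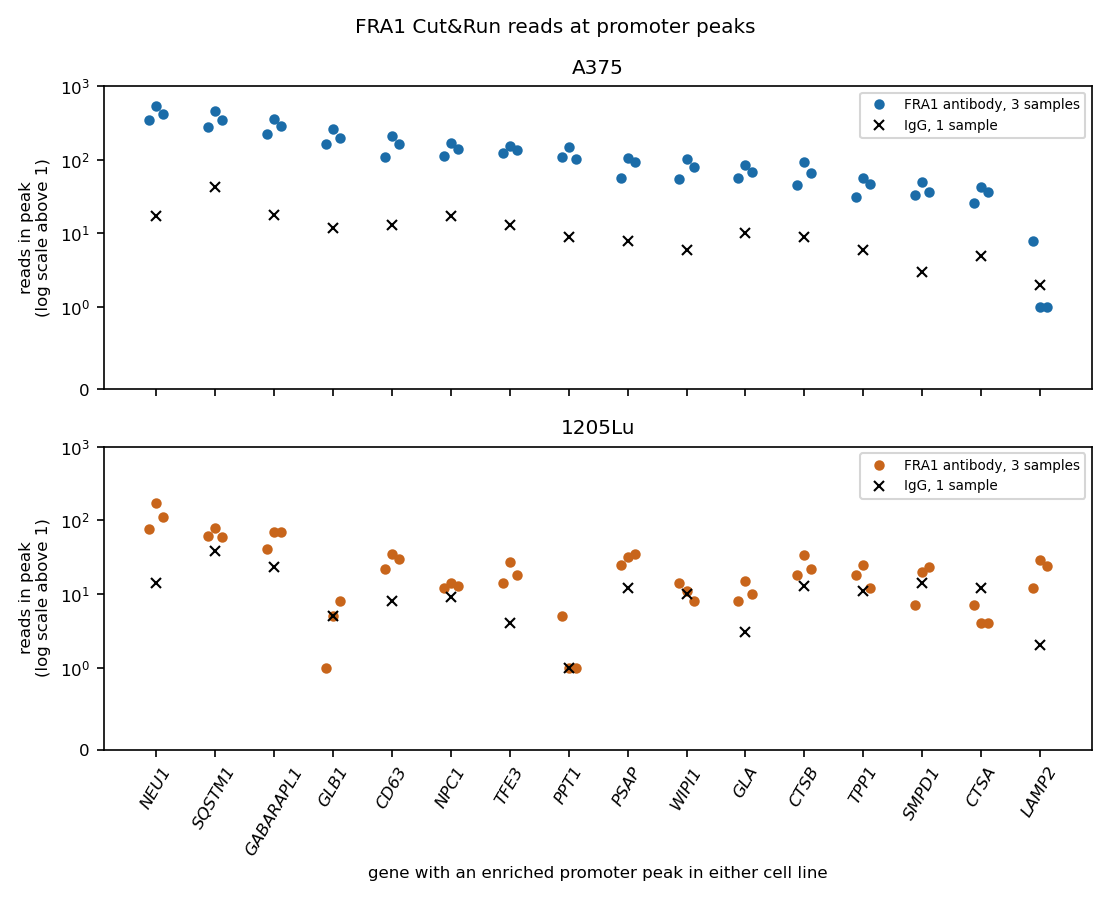
Counts in 1 promoter peak of each of the 16 genes with an enriched peak in either line (y axis, log scale above 1). For each gene, only peaks enriched in either line were taken, and the one with the highest mean in A375 FRA1 samples is shown. Coloured points are the 3 FRA1 samples and crosses the IgG sample, with A375 cells above and 1205Lu cells below. In A375 cells the FRA1 counts stand above IgG for all genes but LAMP2, while in 1205Lu cells most stand close to it. The LAMP2 peak shown was enriched in 1205Lu cells only. Its other promoter peak, not shown, held 17, 29 and 27 FRA1 counts and IgG 5 in A375 cells.

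The FOS and JUN site TGACTCA, read on both strands, was in 3 of the 35 promoters, those of CD63, FUCA2 and TFE3 (8.57%, beside 4.95% of all). Within 100 bases of a peak's centre it was in 8 of the 50 promoter peaks (16.0%), beside 28.6% of all consensus peaks and 18.9% of promoter peaks of protein-coding genes. The sites below, chosen after the values were seen, lay in peaks enriched in A375 cells at genes that rose or fell there. Relative to the centre of the peak, those of WIPI1, GLB1 and TFE3, at -39, -62 and -96 bases, were among the sites counted, whereas those of NEU1, GABARAPL1 and SMPD1, at -109, -393 and -204 bases, lay outside that window. The centres of the WIPI1 and GLB1 peaks lay inside the annotated genes, 21262 and 64009 bases downstream of the 5′ end. These 2 peaks were 2285 and 904 bases from the nearest annotated transcription start. The stretches are printed on the plus strand with TGACTCA or its reverse complement TGAGTCA in capitals, and other sites in the same peaks are not shown.
WIPI1, chr17:68436184-68436240: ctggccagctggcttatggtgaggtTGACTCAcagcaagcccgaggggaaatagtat
GLB1, chr3:33033103-33033159: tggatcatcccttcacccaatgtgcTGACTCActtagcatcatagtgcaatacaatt
NEU1, chr6:31863156-31863212: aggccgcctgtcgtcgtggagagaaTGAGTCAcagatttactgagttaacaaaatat
GABARAPL1, chr12:10212343-10212399: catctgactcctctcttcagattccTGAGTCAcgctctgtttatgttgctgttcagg
SMPD1, chr11:6389969-6390025: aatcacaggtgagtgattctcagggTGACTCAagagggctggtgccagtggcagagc
TFE3, chrX:49043368-49043424: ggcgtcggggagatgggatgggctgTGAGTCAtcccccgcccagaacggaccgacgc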

How the data were processed

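The 47 genes and the other gene lists were chosen with earlier results of these data known, so counts over them are descriptions. For RNA-seq, the authors removed adapters with cutadapt 1.8.1, aligned strand-specific reads to GRCh38 with STAR 2.7.7a and used RSEM 1.3.0 for expected counts per gene, which were deposited as whole numbers and not normalized. Cut&Run reads were aligned by the authors with Bowtie2 2.4.1, and the authors called peaks with MACS2 and deposited raw counts per sample and consensus peak. Whether samples were pooled for peak calling is not given in the sources used here.

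Here, genes passing filterByExpr were tested with edgeR 4.0.16 (R 4.3.3) after TMM normalization with glmQLFit and glmQLFTest, 6 samples per line for silencing, and 12 samples for the difference between lines and for si-NT levels. P-values were adjusted by Benjamini-Hochberg over all genes tested (16899, 17136 and 19452), and SE is the log2 fold change divided by the root of the F statistic. Libraries of each group differed by more than counting error (chi-square over degrees of freedom 2.55 to 3.41), so none was counted as a repeat. Transcription starts and exon lengths came from GENCODE 44 on GRCh38, and motifs were searched with Python 3.11.15. Scripts were tested on simulated data. Values per sample are given for genes that passed with an absolute log2 fold change or a difference between lines over 0.5, and for LAMP1, SQSTM1, TFEB and TFE3. From each other list the text gives the genes over 0.5 that passed in both lines in the same direction, otherwise up to 2 with the largest change that passed in each line, and 1 gene so selected is not reported here. The alternatives were DESeq2 1.42.0, upper-quartile or no factors, other filters, protein-coding genes only, all samples in 1 fit, a block for the replicate number, each sample left out, and other limits, distances and scalings for the peaks.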

Additional observations from a re-analysis of the deposited data

Results flagged for a closer look

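Each gene below responded differently to FRA1 silencing in the 2 lines by the interaction test (edgeR, adjusted p under 0.05 over 12 samples). Values are the log2 fold change in 1205Lu cells minus that in A375 cells, as values with no explanation. FOSL1 itself differed by 1.19, since more of its mRNA was left in 1205Lu cells (14.0% against 6.19%), and the part of that in the other differences was not tested.

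Among the 47 genes, 30 were flagged. Higher in 1205Lu cells were TFE3 (0.66), TPP1 (0.41), GUSB (0.40), SQSTM1 (0.38), MAN2B1 (0.36), GAA (0.32), NPC1 (0.30), GRN (0.26), CTSB (0.16), MAP1LC3B (0.16) and LAMP1 (0.13). Lower in 1205Lu cells were FUCA1 (-0.93), MANBA (-0.71), ASAH1 (-0.70), CTSL (-0.68), SMPD1 (-0.61), ATP6V1A (-0.57), CD63 (-0.50), SCARB2 (-0.45), GM2A (-0.44), MCOLN1 (-0.40), CTSZ (-0.35), WIPI1 (-0.35), PSAP (-0.26), GLB1 (-0.24), PPT1 (-0.24), LIPA (-0.21), NPC2 (-0.21), LAMP2 (-0.20) and ATP6AP1 (-0.19). Leaving out a single sample ended the call of MCOLN1 for all samples but 1205Lu si-NT replicate 2 and 1205Lu si-FRA1 replicate 1 (adjusted p up to 0.14). The call of ATP6AP1 ended for all but A375 si-NT replicate 3, A375 si-FRA1 replicate 3, 1205Lu si-NT replicate 1 and 1205Lu si-FRA1 replicate 3 (up to 0.159). Without 1205Lu si-NT replicate 1 the calls of LIPA (adjusted p = 0.0922), GLB1 (0.0506) and GAA (0.0563) ended. Without 1205Lu si-FRA1 replicate 3 those of LIPA (0.0574) and GLB1 (0.0518) did, and without 1205Lu si-FRA1 replicate 1 that of LIPA (0.0608). The call of NPC2 ended without A375 si-FRA1 replicate 3 (0.0517) or 1205Lu si-FRA1 replicate 2 (0.0602). With upper-quartile factors the calls of LAMP1, CTSB and MAP1LC3B ended (adjusted p = 0.132, 0.0793 and 0.0758), with DESeq2 those of LAMP1 and MAP1LC3B (0.0733 and 0.0607), and without a filter on low counts those of MCOLN1 and LIPA (0.124 and 0.0581).

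Among the other pathway genes named, 16 were flagged. Higher in 1205Lu cells were ANPEP (1.02), ULK1 (0.93), FLCN (0.83), CTNS (0.63), GGA1 (0.28), ATP6V1G1 (0.26), VPS26A (0.26), ATG12 (0.23), FNIP1 (0.22) and RB1CC1 (0.21). Lower were CD68 (-0.77), CTSO (-0.61), VPS35 (-0.44), GNPTAB (-0.44), BNIP3 (-0.38) and CSTB (-0.27). ANPEP stood at a mean of 0.399 CPM in 1205Lu si-NT samples, and its call ended without 1205Lu si-FRA1 replicate 1 (0.64, adjusted p = 0.312). The calls of CTSO and GGA1 ended without any of 7 and 5 of the 12 samples (adjusted p up to 0.116 and 0.117), A375 si-NT replicate 3 among them for both genes. That of CTSO also ended without a filter (0.149), that of GGA1 with DESeq2 (0.0645) or upper-quartile factors (0.082), and that of ATG12 with upper-quartile factors (0.0592).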

How the results depend on the processing

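The numbers of genes that rose and fell kept within 1.5 times under the alternatives run, other than the fold limit. Leaving out each sample in turn, 24 to 27 genes rose and 5 to 5 fell in A375 cells, and 17 to 20 rose and 7 to 11 fell in 1205Lu cells. Of all protein-coding genes tested in those fits, 26.8 to 27.4% rose and 25.4 to 26.1% fell in A375 cells. In 1205Lu cells 21.4 to 22.6% of them rose and 19.9 to 20.3% fell. Under the other settings 24 to 29 rose and 5 to 6 fell in A375 cells, and 18 to 22 rose and 8 to 12 fell in 1205Lu cells. The shares of protein-coding genes moved as well. Under these settings 22.2 to 31.7% of them rose and 17.8 to 29.7% fell in A375 cells. In 1205Lu cells 17.5 to 27.2% rose and 14.8 to 26.5% fell. With the fold limit the counts were 1 and 0 in A375 cells, 0 and 0 in 1205Lu cells, 0 and 0 for the difference between lines, and 17 and 5 for si-NT levels. The replicate number did not pair the samples (correlation of deviations of same-numbered samples -0.0162 to 0.0188), and with a replicate block the median log2 fold change of the 47 was 0.243 in A375 cells and 0.079 in 1205Lu cells, only CTSH lost its silencing call (adjusted p = 0.0529), and the difference between lines no longer passed for MCOLN1, CTSO and GGA1 (0.0699, 0.0523 and 0.0568). NPC1 in 1205Lu cells did not pass with DESeq2, no factor, no filter or all samples in 1 fit (adjusted p 0.0532 to 0.128). Of 61 values whose sign changed under some setting, 0 had passed in either fit. The median difference of si-NT levels, 0.652, was 0.708 with DESeq2, 0.541 without a filter, 0.705 with at least 10 counts in every sample and 0.584 without A375 si-NT replicate 3. Promoter peaks depended on the rule: in A375 cells 27 genes were enriched at 2 times IgG, 6 at 8 times and 0 with scaled counts, and 15 to 24 without 1 FRA1 sample. In 1205Lu cells 7 were enriched at 2 times IgG, 0 at 8 times, 0 with scaled counts, 1 within 1 kb, and 2 to 3 without 1 FRA1 sample. These counts stand without the shares of all protein-coding genes under the same settings, so they describe the rule and not these genes. The scaled counts have the limit given above. The cause of these changes was not tested beyond the settings themselves. Genes at a few CPM, such as TFEB, CTSH, CTSK and CTSS, had SE of 0.11 or more and depth limits what can be said of them.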
